A study of Mus musculus with 16 samples.

Results

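Whether ozone changed lung gene expression by more or by less in adiponectin-deficient mice than in wildtype mice was examined over all 16 of the 16 arrays of the series and over all 12393 of the 12393 genes that had a probe set with 1 gene symbol. For each gene the ozone effect was the level in ozone minus the level in room air on the log2 scale, where 1 unit is a 2-fold change. The value described is the ozone effect in deficient mice minus the ozone effect in wildtype mice, called the interaction. A response is called amplified where the interaction has the sign of the ozone effect averaged over both genotypes, and damped where it has the opposite sign.

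Every array was made from the left lung RNA of a single mouse. The 4 groups were wildtype C57BL/6 mice in room air, wildtype mice in ozone at 0.3 ppm, adiponectin-deficient mice in room air and adiponectin-deficient mice in ozone, each exposed for 72 h, with the lungs taken directly afterwards. Every group had 2 male mice, M1 and M2, and 2 female mice, F1 and F2, and the average age over the study was 14 weeks. The labels give C57BL/6 as the background strain of both genotypes and do not say how the adiponectin gene was disrupted or whether the wildtype mice were littermates.

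Ozone is an oxidant gas that injures the epithelium of the airways and alveoli. The lung answers with inflammation, acute phase proteins, division of the surviving cells and remodelling of the matrix between them. Adiponectin is a hormone that fat cells secrete into the blood, acts through the receptors Adipor1 and Adipor2 and binds the cadherin Cdh13 on vessel walls. It is known for dampening inflammation, so the size of the ozone response in its absence is the question that these 4 groups pose.

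The intensities were processed with RMA, a method that removes background, brings arrays to 1 distribution and combines the probes of each set into a value. The array medians lay between 145.9 and 153.7. Adipoq, the gene of adiponectin, read 7.19, 8.05, 11.52 and 8.89 in wildtype air and 7.70, 7.77, 7.96 and 8.76 in wildtype ozone, always in the order M1, M2, F1, F2. In deficient mice it read 6.32, 6.43, 6.97 and 8.82 in air but 6.36, 6.14, 6.33 and 6.07 in ozone. So 7 of the 8 deficient arrays lay below every wildtype array, while the array labelled deficient air F2 lay inside the wildtype range. That array also had a mean of 9.22 over 14 fat cell markers, against 7.24 to 7.63 on the other deficient air arrays, and which part of the transcript its probe set reads is not stated in the labels. Wildtype air F1 had a fat marker mean of 9.49, deficient air M2 had a mean of 8.74 over 14 squamous epithelium markers against 5.40 to 5.95 on all other arrays and of 10.05 over 18 muscle markers against 7.48 to 8.13, and wildtype ozone M2 had a mean of 10.24 over 13 neutrophil markers against 6.91 to 7.82. For wildtype ozone F1 the free description says room air, but the exposure field, the source and the title all say ozone. It stayed with the ozone arrays here, where its levels of Timp1 (10.73) and Retnla (13.61), which ozone raised in both genotypes, were the highest of the 4 wildtype ozone arrays.

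Ozone itself moved a large part of the measured genes. With the 16 arrays fitted together by limma, the ozone effect averaged over both genotypes was called for 6031 of 12393 genes (48.7%), 3221 of them higher and 2810 lower in ozone. A gene was called at a p-value under 0.05 after Benjamini-Hochberg adjustment over all genes. The genotypes did not differ detectably in the size of that effect for any gene: the interaction was called for 0 of 12393 genes (0%), and the smallest adjusted p was 0.673. At an unadjusted p under 0.05 limma found 605 genes (4.88%), 298 with a higher and 307 with a lower ozone effect in deficient mice, where uniform p-values would give 620. The count called was also 0 under every alternative tried except females alone, where it was 1. Values below are therefore given gene by gene with their error, and no gene named in them passed the test for the interaction in all 16 arrays.

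The precision sets what this comparison could have seen. The standard error (SE) of the interaction had a median of 0.12 log2 over all genes and of 0.21 over the 167 genes whose average ozone effect was called and reached 1 log2 in either direction. The first gene to be called would have needed an interaction of 0.82 at the median SE, of 1.58 for Timp1 and of 3.37 for Saa3. Of the 167 strongly responding genes, 130 had a 95% interval of the interaction that lay inside 1 log2 on both sides, and 38 had one inside 0.5 log2. For those genes a difference of that size is outside the interval. For the other 37 the interval reached or passed 1 log2 in either direction, so a difference of at least that size was not excluded. Saa3, with an interval from 1.41 to 3.45, is among them.

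Among genes that rose strongly in ozone, the rise was larger in deficient mice more often than in wildtype mice. Of 112 genes with an average rise of at least 1 log2, 87 had a larger and 25 a smaller rise in deficient mice, and the median interaction was 0.17, against -0.0042 over all genes tested, of which 48.7% (6040 of 12393) had a positive interaction. Of 55 genes with an average fall of at least 1 log2, 22 fell by more and 33 by less in deficient mice, with a median of 0.08. At 0.5 log2 the counts were 395 and 143 of the rising and 194 and 382 of the falling genes, and at 1.5 log2 they were 36 and 7, and 4 and 6. Over all 3221 genes called for a rise the split was 1576 larger and 1645 smaller. These genes share arrays and vary together, so the counts describe these 16 arrays and carry no test.

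The mean level of the 112 strongly rising genes was 7.16, 7.11, 7.11 and 7.19 in wildtype air and 8.64, 8.58, 8.62 and 8.62 in wildtype ozone. In deficient mice it was 7.09, 7.26, 7.20 and 7.23 in air against 8.76, 8.86, 8.68 and 9.04 in ozone. The 4 deficient ozone arrays all lay above the 4 wildtype ozone arrays, and deficient ozone F2 lay farthest from them. The mean ozone effect was 1.47 in wildtype and 1.64 in deficient mice. Without deficient ozone F2 the split was 81 larger and 28 smaller, with a median interaction of 0.12, and leaving out each other array in turn gave 84 to 95 larger and 19 to 27 smaller. Without that array 12 of the 45 strongly falling genes fell by more in deficient mice, in place of 22 of 55. Their mean ozone effect over all arrays was -1.25 in both genotypes.

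**Figure D1:**
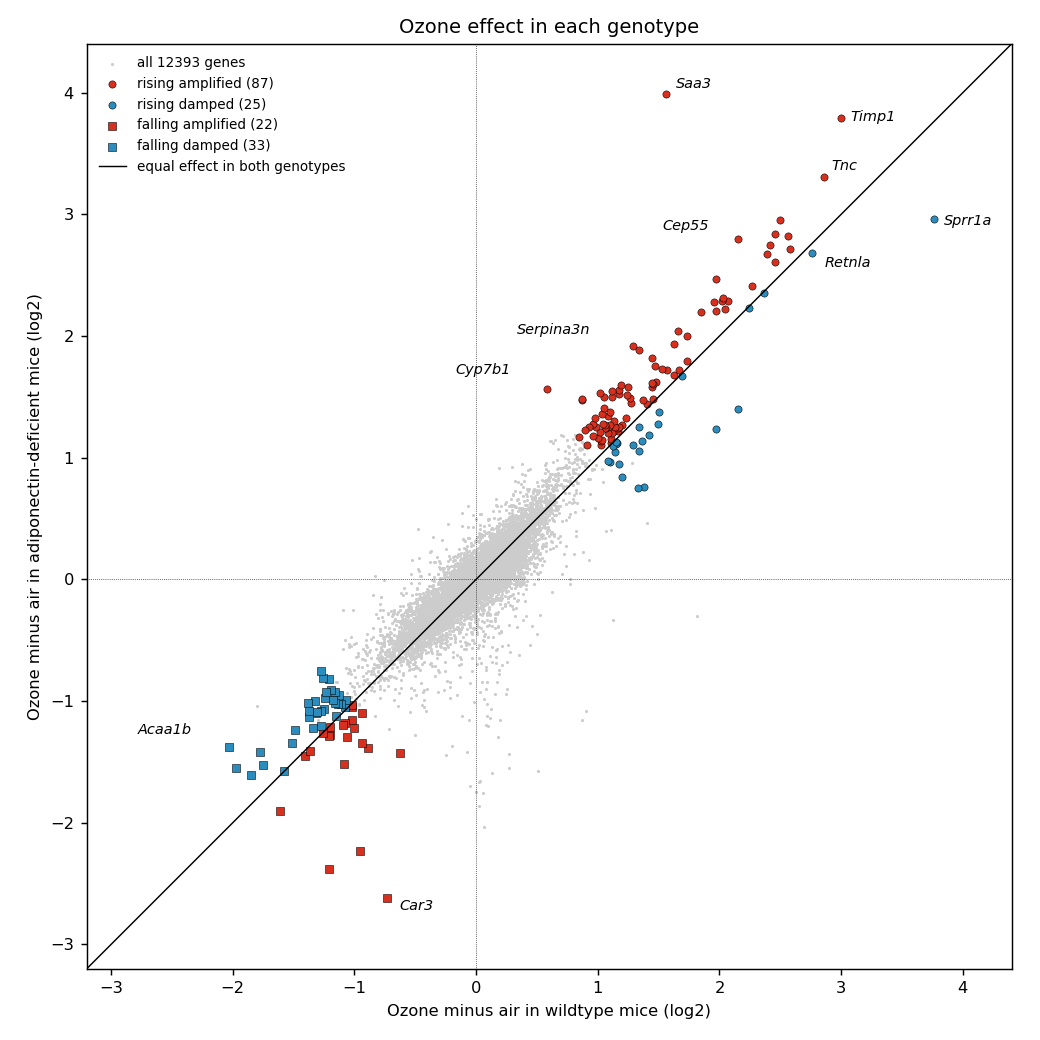
Each point is 1 gene, with its ozone effect in wildtype mice on the horizontal axis and in adiponectin-deficient mice on the vertical axis (log2, 4 arrays per group). Coloured points are the 112 genes that rose and the 55 that fell by at least 1 log2 on average, red where amplified (87 and 22) and blue where damped (25 and 33). Most points lie along the line of equal effect, and Saa3 lies farthest above it among the rising genes.

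Saa3, an acute phase serum amyloid A that injured tissue makes locally, had the largest interaction of the strongly rising genes and the smallest p of all genes. It read 7.06, 7.28, 7.68 and 7.58 in wildtype mice in air and 8.50, 9.33, 8.91 and 9.13 in those in ozone, against 6.80, 7.51, 7.81 and 7.25 in deficient mice in air and 11.23, 10.79, 10.59 and 12.73 in those in ozone. Every deficient ozone array lay above every wildtype ozone array, while the air groups overlapped. Ozone raised Saa3 by 1.56 log2 (2.96-fold) in wildtype and by 3.99 (15.9-fold) in deficient mice, and the interaction was 2.43 ± 0.48 (SE, limma's adjusted p = 0.673, 95% interval 1.41 to 3.45). The value was 2.11 in males and 2.75 in females. It ran from 1.99 without deficient ozone F2 to 2.77 without deficient ozone F1, and its adjusted p ran from 0.106 to 1 over the alternatives.

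Timp1, a secreted inhibitor of matrix metalloproteinases, had 1 of the largest ozone effects in both genotypes. It read 7.35, 7.41, 7.47 and 7.81 in wildtype mice in air and 10.12, 10.64, 10.73 and 10.55 in those in ozone, against 7.41, 7.35, 7.32 and 7.15 in deficient mice in air and 10.70, 11.42, 10.91 and 11.37 in those in ozone. The ozone groups overlapped, since deficient ozone M1 lay below wildtype ozone F1. Ozone raised it 7.99-fold in wildtype and 13.8-fold in deficient mice, an interaction of 0.79 ± 0.22 (SE, limma's adjusted p = 0.983). Serpina3n, an acute phase serine protease inhibitor, read 10.47, 11.13, 10.62 and 10.52 in wildtype ozone and 10.99, 11.08, 10.69 and 10.98 in deficient ozone, groups that overlapped. Its interaction of 0.63 ± 0.18 (ozone effects of 1.29 and 1.92, limma's adjusted p = 0.983) also drew on the air groups, which differed by -0.38 (deficient minus wildtype).

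Cyp7b1, which hydroxylates oxysterols and steroids, read 7.38, 7.45, 7.38 and 6.96 in wildtype ozone and 8.28, 8.36, 7.76 and 8.55 in deficient ozone. These groups did not overlap, the air groups did, and the ozone effects were 0.58 and 1.57 (interaction 0.99 ± 0.24, limma's adjusted p = 0.726). A second Cyp7b1 probe set gave 0.48. Aaas, a component of the nuclear pore, had ozone effects of 0.40 and 0.86 (0.45 ± 0.10, limma's adjusted p = 0.673). Its ozone groups overlapped and its air groups did not, with 6.98 to 7.17 in wildtype and 6.77 to 6.82 in deficient air. Ctla2b, an inhibitor of cathepsins related to their propeptides, had the smallest p among amplified falls, at -0.26 in wildtype and -0.75 in deficient mice (-0.49 ± 0.14, limma's adjusted p = 0.983).

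**Figure D2:**
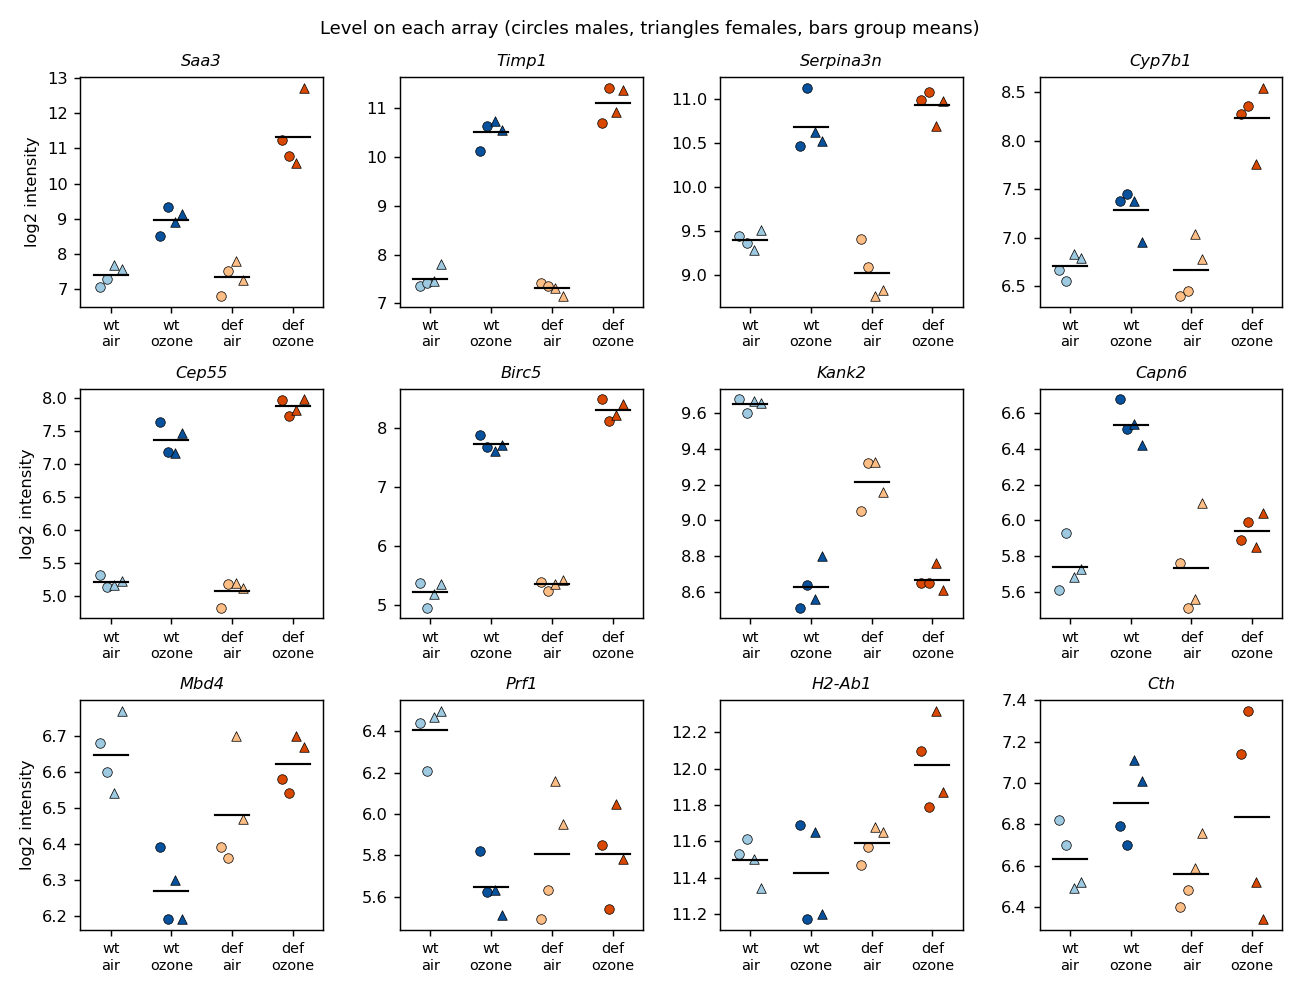
Log2 intensity of 12 genes on each of the 16 arrays, with circles for males, triangles for females and a bar for each group mean. Saa3, Cyp7b1, Cep55 and Birc5 show deficient ozone arrays that all lie above the wildtype ozone arrays, Capn6 shows the reverse order, and Cth shows males and females of the deficient ozone group apart.

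The genes of cell division rose in both genotypes, and nearly all of them by more in deficient mice. Of 38 measured cell cycle and mitosis genes, 37 rose in ozone on average, 34 of those by more in deficient mice, and the median interaction was 0.19. The interaction was called for 0 of 38 in either direction, and 8 had a higher value at an unadjusted p under 0.05 against 298 of all 12393 genes. All 25 members that rose by at least 1 log2 were amplified. Over all 12393 genes 3221 rose on average, 1576 of them by more in deficient mice, and 2810 fell, 1128 of them by more. Those counts stand as the background for this list and the later ones. The mean level of the 38 genes was 7.98, 7.80, 7.79 and 7.86 in wildtype ozone and 8.18, 8.11, 7.93 and 8.20 in deficient ozone, which overlapped, and ran from 6.43 to 6.53 over the 8 air arrays. Leaving out 1 array in turn left 29 to 35 of the 38 higher in deficient mice, with medians from 0.15 to 0.26.

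Cep55, which acts in the final cut between daughter cells, read 7.64, 7.18, 7.17 and 7.46 in wildtype ozone and 7.97, 7.72, 7.82 and 7.98 in deficient ozone, without overlap. Its ozone effects were 2.15 and 2.79 (interaction 0.64 ± 0.15, limma's adjusted p = 0.726), while a second, dimmer probe set gave -0.08. Birc5, the spindle protein survivin, read 7.88, 7.68, 7.62 and 7.71 against 8.12 to 8.49 in deficient ozone, again without overlap, and had 0.45 ± 0.14 on effects of 2.50 and 2.95. Outside that list, Trip13, which remodels checkpoint complexes, had 0.61 ± 0.15 (0.87 and 1.49), Ube2t, a ubiquitin-conjugating enzyme of DNA repair, 0.49 ± 0.15 (0.70 and 1.19) and Plk4, the kinase of centriole duplication, 0.46 ± 0.14 (0.72 and 1.18). Other probe sets gave 0.02 for Trip13 and 0.19 and 0.00 for Plk4, so the probe sets of 1 gene differed for these 2 genes as for Cep55. Within the list Nusap1 and Prc1, which bundle spindle microtubules, had 0.33 ± 0.12 and 0.38 ± 0.14. A second, dimmer probe set gave -0.05 for Nusap1, and another gave 0.32 for Prc1. Mki67, the usual marker of dividing cells, had ozone effects of 2.58 and 2.71, and its interaction of 0.13 had an interval from -0.30 to 0.57. In whole lung tissue more dividing cells and more RNA per dividing cell cannot be told apart, and the same holds for every gene group here.

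Acute phase genes and inflammatory signals leaned the same way, unevenly. Of 26 measured acute phase genes, 15 rose on average, 13 of them by more in deficient mice, with a median interaction of 0.15 over the list and 0 called. Fgg, a fibrinogen chain, had 0.40 ± 0.18 (0.21 and 0.60) and 0.25 without deficient ozone M2, Saa1 had 0.18 ± 0.09 (0.26 and 0.43), and Lcn2, an iron-sequestering lipocalin, had nearly equal effects of 1.73 and 1.80 with an interval from -0.60 to 0.73. Neutrophil markers were high on wildtype ozone M2, where Lcn2 was also highest of its group at 12.56. Their part in these values was not tested.

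Of 19 measured genes of the IL-6 family and IL-17 cytokines and their receptors, 8 rose and 2 fell on average and the median interaction was 0.07. Il6, the inducer of acute phase proteins, read 4.71, 4.53, 5.04 and 4.88 in wildtype ozone and 5.07, 4.96, 4.94 and 6.21 in deficient ozone. Its interaction of 0.47 ± 0.27 (0.43 and 0.90) was 0.19 without deficient ozone F2, the array with the highest level. Lif, a cytokine of the same family, had 0.38 ± 0.14 (0.28 and 0.66), with -0.04 in a second, dimmer probe set and 0.24 without deficient ozone F2, and Socs1, a feedback inhibitor of cytokine receptors, had 0.20 ± 0.11. Nfkbiz, a nuclear partner of NF-kB, had effects of -0.33 and 0.14 (0.47 ± 0.21). Il17a and Csf3 showed little ozone effect in either genotype, at 0.09 and -0.00 for Il17a and 0.02 and -0.03 for Csf3. Their group mean intensities were 57.8 to 62.7 and 39.5 to 41.6, and those of Il6 20.5 to 42.3. The array medians were 145.9 to 153.7. Whether such dim probe sets detect the transcript was not tested, so the values do not show that it did not respond.

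Of 29 measured chemokine genes, 17 rose in ozone on average, 12 by more and 5 by less in deficient mice, with a median interaction of 0.09. Cxcl1, which attracts neutrophils, read 5.27, 5.16, 5.91 and 5.26 in wildtype ozone and 5.85, 5.69, 5.71 and 6.69 in deficient ozone, with 1 high female array in each group. Its interaction was 0.73 ± 0.27 (0.19 and 0.92), and 0.50 without deficient ozone F2. Cxcl5, of the same class, had 0.50 ± 0.30 (0.16 and 0.66) and 0.17 without that array. Ccl22, made by macrophages and dendritic cells, had 0.50 ± 0.18 (0.65 and 1.14), Ccl2, which attracts monocytes, had 0.08 ± 0.15 (0.50 and 0.58), and Cxcl2 had 0.03 ± 0.17 (0.15 and 0.18). Cxcl2 and Cxcl5 were dim as well, with group mean intensities of 19.1 to 23.2 and 20.5 to 35.8.

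Most matrix genes rose in ozone on average. Of 32 measured extracellular matrix genes, 24 rose on average, 18 by more and 6 by less in deficient mice, and the median interaction was 0.06. It was -0.05 without the 3 air arrays high in fat, muscle or squamous markers, so the direction of this list's median depended on those arrays. The mean level of the list was 9.84 in wildtype and 9.81 in deficient ozone, and 9.28 and 9.17 in air. Tnc, an adhesion-modulating matrix protein, had ozone effects of 2.86 and 3.31 (interaction 0.45 ± 0.30, and 0.26 without deficient ozone M2), Vcan, a large proteoglycan, 1.02 and 1.53 (0.52 ± 0.24), Col1a1 1.19 and 1.60 (0.41 ± 0.23) and Lox, which crosslinks collagen, 0.56 and 0.94 (0.38 ± 0.14). Col1a1 averaged 11.59 in wildtype and 11.54 in deficient ozone, but 10.40 and 9.95 in air, so its interaction came from the air groups. Tnc, Vcan and Lox averaged higher in deficient than in wildtype ozone, and lower in deficient than in wildtype air. Col18a1 had 0.28 ± 0.10 and Col12a1 ran the other way at -0.28 ± 0.14, and -0.17 without deficient ozone M1. Eln, elastin, had effects of 1.46 and 1.48, and Fn1, fibronectin, 0.95 and 0.90. Their intervals ran from -0.44 to 0.49 and from -0.38 to 0.28, so differences beyond 0.5 log2 lie outside both.

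Of 28 measured matrix proteases and inhibitors, 14 rose on average, 13 of them by more in deficient mice, and the median interaction was 0.10. Besides Timp1, the members with a positive value at an unadjusted p under 0.05 were Mmp19 with 0.28 ± 0.08 (0.19 and 0.46), Mmp3 with 0.56 ± 0.18 (-0.03 and 0.53). Mmp12, the macrophage elastase, had 0.33 ± 0.17 (0.84 and 1.17), and 0.21 without wildtype ozone F2. Mmp3 in air differed by -0.33 between the genotypes (deficient minus wildtype). Mmp19 averaged 5.89 in wildtype and 5.91 in deficient ozone, and 5.70 and 5.45 in air. Timp1 differed in ozone, at 10.51 and 11.10. The mean level of the list was 8.12 in ozone in both genotypes, with 8.35 on wildtype ozone M2. In air it was 7.75 in wildtype and 7.67 in deficient mice.

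Antioxidant genes showed no common direction. Of 26 measured targets of the oxidant-sensing factor NRF2 and other antioxidant genes, 11 had a higher and 15 a lower ozone effect in deficient mice, with a median interaction of -0.04. Hmox1, heme oxygenase, had 0.29 ± 0.12 (0.41 and 0.70), Gpx3, a secreted glutathione peroxidase, had 0.18 ± 0.08, and Gclc, which starts glutathione synthesis, had -0.09 ± 0.13 (0.69 and 0.60). Nqo1, a quinone reductase, read 6.92, 7.11, 6.77 and 6.80 in deficient ozone and 6.91 to 7.63 in deficient air, and its effects were 0.11 in wildtype and -0.29 in deficient mice (-0.40 ± 0.12, limma's adjusted p = 0.983). Sod3, the extracellular superoxide dismutase, had -0.06 and 0.34 (0.40 ± 0.13), and its second probe set gave 0.66. Neither Nqo1 nor Sod3 was called for the average ozone effect. Mt2, a metallothionein, had effects of 1.51 and 1.37 and a wide interval from -0.90 to 0.64.

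**Figure D3:**
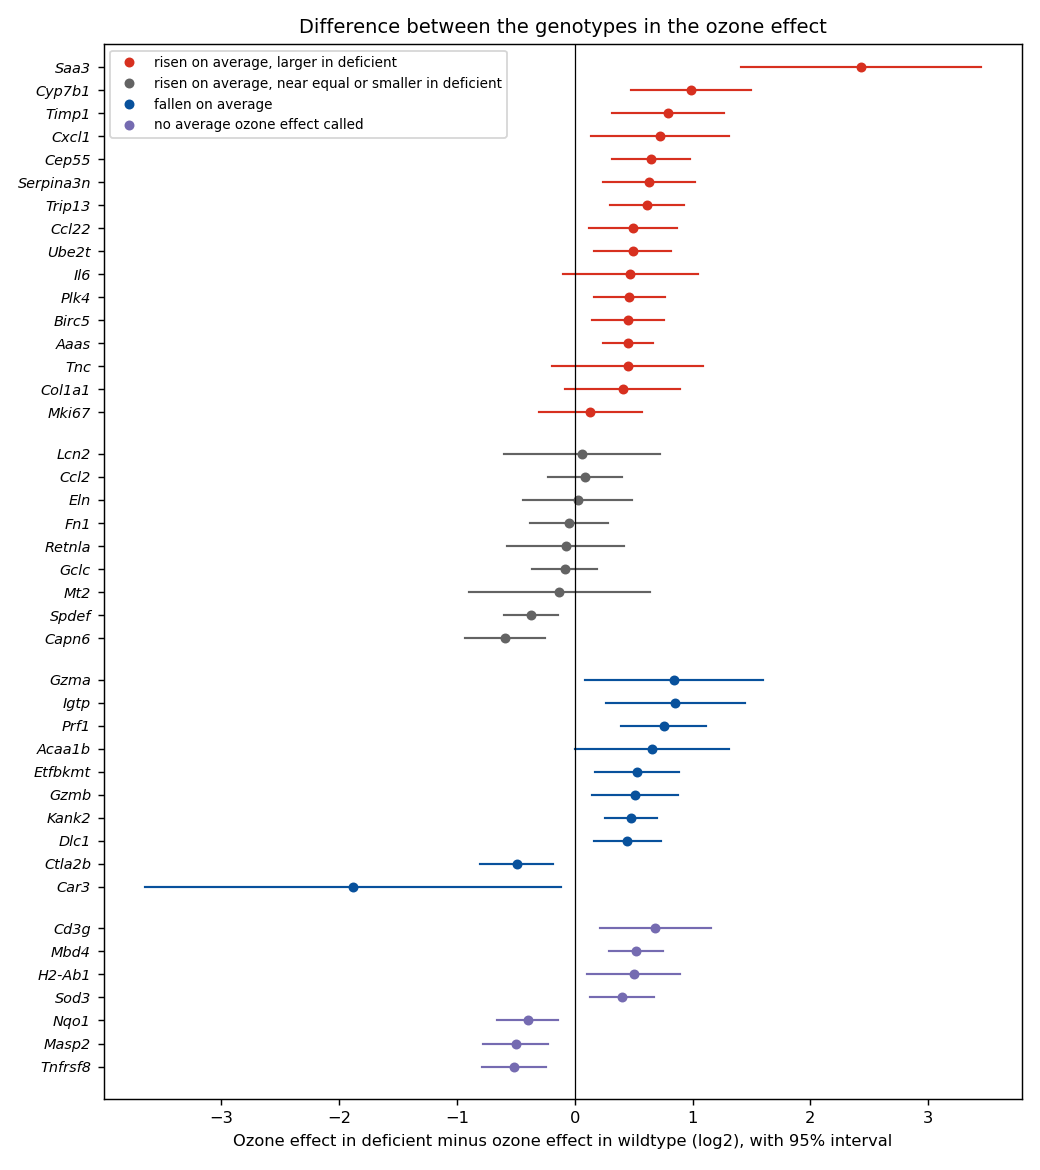
Interaction (ozone effect in deficient minus ozone effect in wildtype mice, log2) of 42 genes with its 95% interval from limma, over 16 arrays. Intervals are unadjusted for the 12393 genes tested, and 0 genes were called; Saa3 has the largest value at 2.43, and the intervals of Eln, Fn1, Ccl2 and Retnla span 0.

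Among damped responses the smallest p belonged to genes that fell in ozone. Kank2, which links integrins to the cytoskeleton, read 9.68, 9.60, 9.67 and 9.66 in wildtype mice in air and 8.51, 8.64, 8.56 and 8.80 in those in ozone, against 9.05, 9.32, 9.33 and 9.16 in deficient mice in air and 8.65, 8.65, 8.76 and 8.61 in those in ozone. The ozone groups overlapped and the air groups did not, so the smaller fall in deficient mice began from a lower level in air. The ozone effects were -1.03 and -0.55 (interaction 0.48 ± 0.10, limma's adjusted p = 0.673), and the genotypes differed by -0.44 in air and by 0.04 in ozone. Dlc1 had the same arrangement, with effects of -0.85 and -0.40 (0.45 ± 0.13) and a difference of -0.52 in air and -0.07 in ozone.

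Etfbkmt, a methyltransferase of the mitochondrial electron transfer flavoprotein, read 7.76, 7.99, 7.77 and 8.06 in wildtype ozone and 8.40, 8.49, 8.17 and 8.12 in deficient ozone. Here the ozone groups did not overlap and the air groups did, with effects of -1.10 and -0.57 (0.53 ± 0.17). The value was 0.89 in males and 0.16 in females, a difference that was not called. Zfp60, Retreg3, Fign, Mylip, Bbx and Spin4 completed the damped falls that the naming rule took, with interactions from 0.33 to 0.44 and limma's adjusted p = 0.983 for each. Acaa1b, a peroxisomal thiolase of fatty acid oxidation, fell by 2.03 in wildtype and by 1.37 in deficient mice (0.66 ± 0.31), with a difference of -0.73 in air and -0.07 in ozone. Among endothelial genes Bmpr2, a receptor for bone morphogenetic proteins, had -1.38 and -1.02 (0.36 ± 0.16) and Epas1, a hypoxia-inducible factor, had -1.75 and -1.52 (0.23 ± 0.16).

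Capn6, a calpain family member that lacks the catalytic cysteine, had the smallest p among damped rises of at least 0.5 log2 on average. It read 5.61, 5.93, 5.68 and 5.73 in wildtype mice in air and 6.68, 6.51, 6.54 and 6.42 in those in ozone, against 5.76, 5.51, 5.56 and 6.10 in deficient mice in air and 5.89, 5.99, 5.85 and 6.04 in those in ozone. All 4 wildtype ozone arrays lay above all deficient ozone arrays, and the air groups overlapped. The effects were 0.80 and 0.21 (-0.59 ± 0.16, limma's adjusted p = 0.983), while a second, dimmer probe set gave 0.03. Spdef, a transcription factor of mucus-secreting goblet cells, read 6.38, 6.32, 6.53 and 6.55 in wildtype ozone and 5.96, 6.13, 6.11 and 6.16 in deficient ozone, again without overlap, with effects of 0.42 and 0.05 (-0.37 ± 0.11). Of 17 measured goblet cell and mucin genes, 9 rose on average, 4 by more and 5 by less in deficient mice, with a median of -0.10. Tff3, a mucosal trefoil peptide, had -0.23 ± 0.11, and the gel-forming mucin gene Muc5ac had equal effects of 0.13 and 0.13 (interval -0.31 to 0.32).

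Genes of T and NK lymphocytes stood lower in ozone than in air in wildtype mice and nearly level in deficient mice. Of 19 measured T and NK cell markers, 8 fell in ozone on average, all 8 by less in deficient mice, and 18 of 19 had a positive interaction, with a median of 0.23 against -0.0042 over all genes and 0 called. The mean level of the list ran from 6.80 to 7.09 in wildtype air and from 6.40 to 6.60 in wildtype ozone, without overlap, and averaged 6.83 in deficient air and 6.76 in deficient ozone, which overlapped. The ozone groups of the genotypes also overlapped, since deficient ozone M2, at 6.52, lay inside the wildtype ozone range. Within the air groups females were higher than males in both genotypes. With each array left out in turn, 16 to 19 members kept a positive value.

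Prf1, perforin, read 6.44, 6.21, 6.47 and 6.50 in wildtype mice in air and 5.82, 5.62, 5.63 and 5.51 in those in ozone, against 5.49, 5.63, 6.16 and 5.95 in deficient mice in air and 5.85, 5.54, 6.05 and 5.78 in those in ozone. The air groups did not overlap and the ozone groups did, so the wildtype air arrays stood above the other 12. The effects were -0.76 and -0.00 (0.75 ± 0.17, limma's adjusted p = 0.673), and a second, dimmer Prf1 probe set gave -0.16. The granzyme genes Gzmb and Gzma had 0.51 ± 0.17 (-0.62 and -0.11) and 0.85 ± 0.35 (-1.10 and -0.25). Cd3g, a chain of the T cell receptor complex, had effects of -0.23 and 0.46 (0.68 ± 0.22) and was not called for the average ozone effect.

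Interferon-stimulated and antigen-presentation genes also had mostly positive interactions. Of 24 measured interferon-stimulated genes, 20 had a positive interaction, with a median of 0.20 and 0 called, where 48.7% of all genes had a positive value. Igtp, an interferon-induced GTPase, read 8.45, 8.23, 8.58 and 8.54 in wildtype ozone and 8.78, 8.52, 9.98 and 8.75 in deficient ozone. Its interaction of 0.85 ± 0.28 (-0.83 and 0.02) was 0.56 without deficient ozone F1, and the list's median was then 0.05. Iigp1 had 0.69 ± 0.29, Tap1, a peptide transporter, 0.51 ± 0.22 and Psmb9, an immunoproteasome subunit, 0.41 ± 0.19. Other, dimmer probe sets of Tap1 gave -0.03, -0.02 and -0.11, while a second Iigp1 probe set gave 0.68.

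Of 14 measured dendritic cell and MHC class II genes, 10 had a positive interaction, with a median of 0.27 and 0 called. At an unadjusted p under 0.05, 5 were higher and 1 lower, against 298 and 307 of all 12393 genes. The median was 0.22 to 0.35 with each array left out in turn. H2-Ab1, a class II chain, read 11.69, 11.17, 11.65 and 11.20 in wildtype ozone and 12.10, 11.79, 12.32 and 11.87 in deficient ozone, without overlap, and its effects were -0.07 and 0.43 (0.50 ± 0.19). Its other probe sets gave 0.51 and 0.49. H2-Eb1 had 0.43 ± 0.16 and Flt3, a receptor of dendritic cell precursors, ran the other way at -0.24 ± 0.09. Of 22 measured macrophage markers, 17 had a positive interaction, with a median of 0.26. Itgax had 0.44 ± 0.19 (-0.11 and 0.33) and Car4, a carbonic anhydrase that capillary endothelium also makes, 0.33 ± 0.14 (0.07 and 0.40). Retnla, a marker of alternatively activated macrophages and among the strongest rises, had effects of 2.76 and 2.69, and its interval ran from -0.57 to 0.42. Chil3 and Arg1, markers of the same state, had 0.36 ± 0.27 and 0.41 ± 0.47 with no called ozone effect. Chil3 was 0.14 without wildtype ozone F2 and 0.55 without wildtype ozone F1, and Arg1 ran from 0.22 without deficient ozone F2 to 0.86 without deficient air M2 and was -0.15 in males alone.

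Some genes with a small p for the interaction had ozone effects of opposite sign in the genotypes and no called average effect, so that neither amplified nor damped describes them. Mbd4, a glycosylase that repairs deaminated methylated cytosine, was second of all genes by p. It read 6.68, 6.60, 6.54 and 6.77 in wildtype mice in air and 6.39, 6.19, 6.30 and 6.19 in those in ozone, against 6.39, 6.36, 6.70 and 6.47 in deficient mice in air and 6.58, 6.54, 6.70 and 6.67 in those in ozone. The wildtype ozone arrays lay below all deficient ozone arrays, and the effects were -0.38 and 0.14 (0.52 ± 0.11, limma's adjusted p = 0.673). Rrs1, a ribosome assembly factor, had 0.45 ± 0.12 and Cpne1, a calcium-dependent membrane-binding protein, 0.30 ± 0.09. In the other direction Tnfrsf8, the lymphocyte receptor CD30, had effects of 0.30 and -0.22 (-0.52 ± 0.13, limma's adjusted p = 0.807). Masp2, a protease of the lectin complement pathway, had 0.38 and -0.12 (-0.50 ± 0.13), with 0.00 in a second probe set. Elavl3, Klhl1 and Tmem114 had -0.36, -0.28 and -0.36, while the other, dimmer Elavl3 probe sets each gave -0.01.

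Immediate early genes, which respond within minutes to stress and to handling of tissue, had mostly positive interactions, only part of which were larger responses. Of 26 measured members 21 had a positive interaction, with a median of 0.17 and 0 called. Of the 13 that rose on average, 8 rose by more and 5 by less in deficient mice. The 2 that fell on average both fell by less in deficient mice. The remaining members had no called average ozone effect. The median ran from 0.08 without wildtype air F2 to 0.24 without the array labelled deficient air F2, and was 0.36 without the 3 air arrays high in fat, muscle or squamous markers. Egr2 had 0.50 ± 0.17 (0.00 and 0.50), Klf2, a flow-responsive endothelial factor, 0.51 ± 0.20 (0.03 and 0.54), Ier3 0.38 ± 0.14 (-0.30 and 0.08) and Egr3 -0.18 ± 0.09.

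The lists of alveolar, club and ciliated cells, of protein folding stress and of lipid metabolism had small median interactions. The median interaction was -0.05 over 16 alveolar type 2 cell genes, -0.04 over 10 alveolar type 1 cell genes, -0.03 over 19 club cell genes, -0.07 over 9 ciliated cell genes, -0.06 over 23 genes of the unfolded protein and heat shock responses and -0.05 over 22 lipid metabolism genes. Sftpc, surfactant protein C, had an interval from -0.20 to 0.06 and Scgb1a1, the club cell secretoglobin, from -0.16 to 0.12. Both read near the highest intensity of the series, 26974.7. Their group means were 23929.1 to 24861.2 for Sftpc and 25338.7 to 25644.9 for Scgb1a1. Whether the signal could still follow a change at that level was not tested, so the narrow intervals may not reflect the transcripts. Sftpd had 0.15 ± 0.08. The club cell genes Fmo2 and Ces1f fell in both genotypes, at -1.32 and -1.10 and at -1.09 and -1.52. Their interactions of 0.22 and -0.43 were 0.12 without deficient ozone M2 and -0.19 without deficient ozone M1. Of 17 circadian clock genes, 9 fell on average and the median interaction was -0.0022, with the clock genes Cry1 at 0.34 ± 0.24 (0.21 without deficient air M2) and Hlf at 0.22 ± 0.33 (0.02 without deficient ozone M1). Of the receptors of adiponectin, Adipor1 had -0.04 ± 0.11, Adipor2 0.28 ± 0.13 (-0.28 and 0.01) and Cdh13 -0.29 ± 0.17 (0.09 and -0.20).

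**Figure D4:**
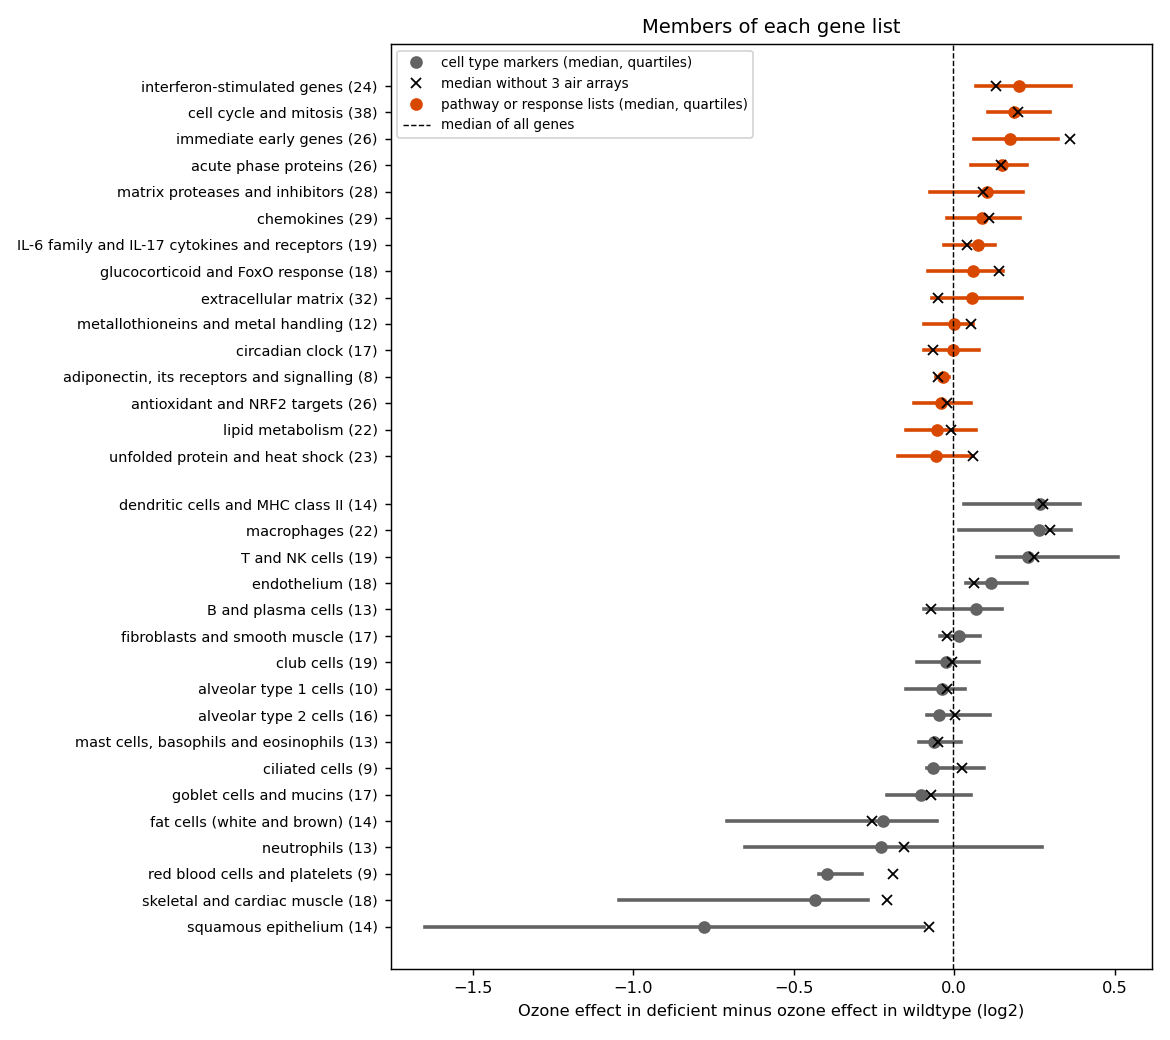
Median interaction (dot) and its quartiles (bar) over the measured members of each gene list, in log2, with the number of members in parentheses, and the median without wildtype air F1, the array labelled deficient air F2 and deficient air M2 (cross). Cell cycle, acute phase, T and NK cell and MHC class II lists lie to the right of the median of all genes with and without those arrays, while the squamous list moves from -0.78 to -0.08.

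Markers of muscle, squamous epithelium and fat had negative median interactions that moved with single air arrays. The median interaction was -0.43 over 18 muscle genes, -0.78 over 14 squamous epithelium genes and -0.22 over 14 fat cell genes, and 0 genes were called. Without deficient air M2 the muscle median was -0.09 and the squamous median -0.03. Tnnt3, a troponin of fast muscle, read 11.14 in deficient air M2 and Krt13, a keratin of squamous lining, 10.64 there, and their interactions of -2.09 ± 1.36 and -1.71 ± 1.28 were -0.53 and -0.23 without it. Sprr1a, a precursor of the cornified envelope named after its values were seen, had the largest damped rise, at 3.76 in wildtype and 2.96 in deficient mice. It read 9.36 in deficient air M2 against 5.22 to 5.53 on the other 3 deficient air arrays, and its interaction of -0.80 ± 0.91 was 0.23 without that array. The fat cell median was 0.02 without the array labelled deficient air F2 and -0.72 without wildtype air F1. Car3, a carbonic anhydrase of fat and muscle and the gene with the largest amplified fall, had -1.88 ± 0.83 (-0.73 and -2.61). Its value ran from -2.52 to -1.43 with 1 array left out in turn, and its ozone groups did not overlap. Over 9 red blood cell and platelet genes the median was -0.40, and -0.15 without wildtype ozone M2. Pf4, a platelet chemokine, had -0.42 ± 0.17, and -0.26 without that array. Over 13 neutrophil genes it was -0.23, and 0.46 without wildtype ozone M2, so its direction was that of 1 array. S100a8, their alarmin, had an interval from -1.58 to 2.78, and its interaction of 0.60 was 0.11 without deficient air M1 and 1.60 without wildtype ozone M2.

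The strong rises kept their lean without these arrays. Without wildtype air F1, the array labelled deficient air F2 and deficient air M2, 102 of 118 strongly rising genes rose by more in deficient mice, and the cell cycle list had 34 of 38 higher members with a median of 0.20. Without wildtype ozone M2 the split was 89 of 113. Without wildtype ozone F1, the array with the conflicting description, it was 85 of 110. The interaction was called for 0 genes in each of these fits.

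**Figure D5:**
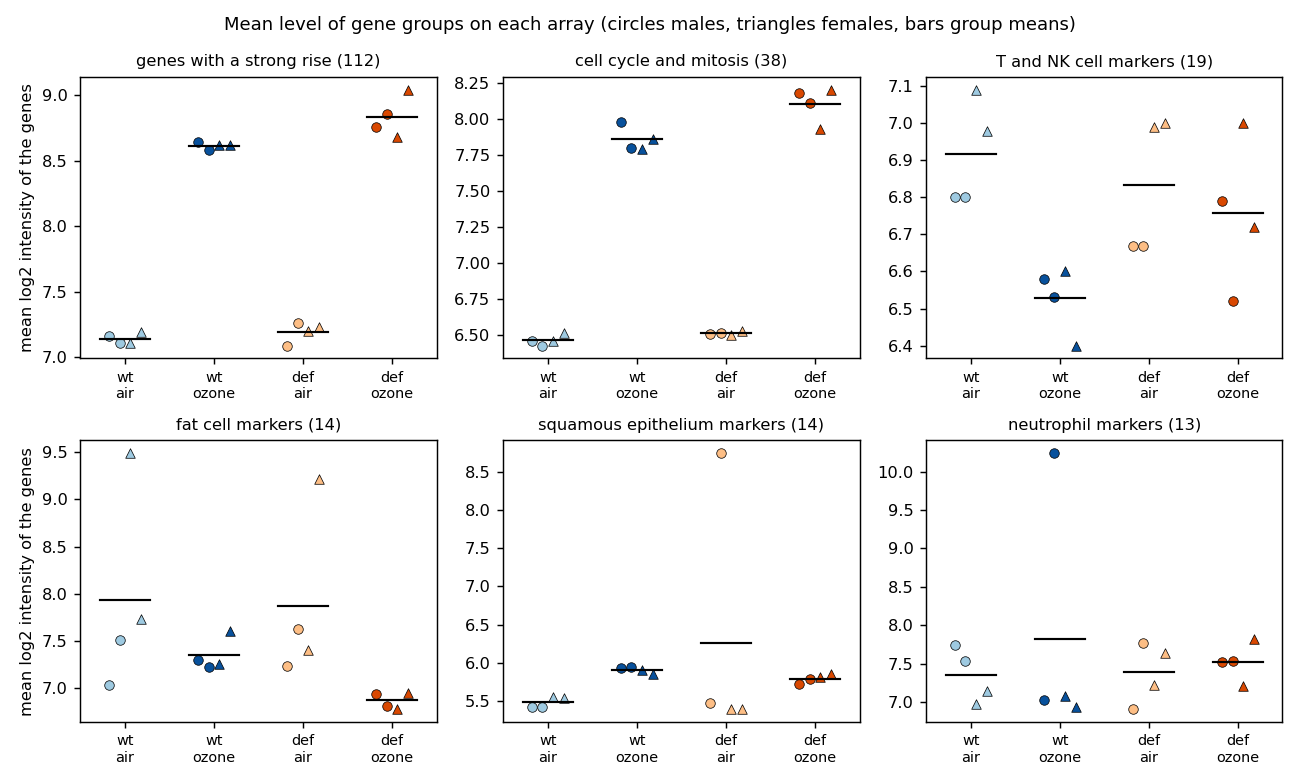
Mean log2 intensity over a group of genes on each array, with circles for males, triangles for females, bars for group means and the number of genes in parentheses. The deficient ozone arrays lie above the wildtype ozone arrays for the 112 strongly rising genes (8.68 to 9.04 against 8.58 to 8.64), and single arrays stand apart for fat cell, squamous epithelium and neutrophil markers.

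Males and females were also compared for the interaction itself, with 2 arrays of each sex per group. The difference was called for 1 of 12393 genes, Cth, which makes cysteine from cystathionine and can also make hydrogen sulfide. At an unadjusted p under 0.05 limma found 1063 genes, where uniform p-values would give 620. The arrays high in fat, squamous, muscle or neutrophil markers enter that count, each as 1 of 2 mice of its sex and group. Cth read 6.82, 6.70, 6.49 and 6.52 in wildtype mice in air and 6.79, 6.70, 7.11 and 7.01 in those in ozone, against 6.40, 6.48, 6.59 and 6.76 in deficient mice in air and 7.14, 7.35, 6.52 and 6.34 in those in ozone. The ozone arrays of wildtype females were above their air arrays and those of wildtype males were not, while in deficient mice the order of the sexes was the reverse. The interaction was 0.82 in males and -0.80 in females, a difference of -1.62 ± 0.20 (female minus male, SE, limma's adjusted p = 0.0435). With 1 array left out in turn the call was kept in 3 of 16 fits, and over both sexes together the interaction of Cth was 0.01 ± 0.25. Cth was named after its values were seen.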

How the data were processed

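Total RNA of 16 left lungs was hybridised to Affymetrix arrays. The authors deposited intensities processed with RMA, per the submitters' processing notes, on a linear scale from 11.1 to 26974.7, with the software version not given in the sources used. Here log2 was taken with no further normalization. Of 22690 probe sets, 64 were controls, the platform annotation gave 1 symbol to 20380, several to 691 and none to 1555. By entrez ID 20351 matched RefSeq GRCm38.p6. Each of the 12393 genes was represented by its probe set of highest mean, chosen among several for 4956 genes.

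Groups followed the labels, and replicates are separate mice. limma 3.58.1 (R 4.3.3) fitted the 4 groups with sex as a covariate to all 16 arrays, with Benjamini-Hochberg adjustment over all genes, and was tested on simulated data. Tables and plots used Python 3.11.15, pandas 2.3.3 and matplotlib 3.10.9. Among genes with a called average ozone effect of at least 0.5 log2, those of smallest interaction p were named, for amplified and damped responses apart. Among genes with no called average ozone effect, those of smallest p in each direction were named. Others were named by p within gene lists and from a fixed set of genes, so not every gene of small p is shown. The members, lists and rules were chosen with earlier results of these data known. Cth, Pcdhb9 and Sprr1a were named after their values were seen. Alternatives covered normalization, dim probe sets, probe set choice, the prior, array weights, the threshold, the sex term, each sex alone, a replicate block and each array left out. The 0.5 and 1.5 log2 limits for a strong response were chosen after seeing the data. Replicate numbers do not pair the mice: 18 of 24 same-numbered pairs had a correlation of deviations over 0.1 (range -0.0403 to 0.35), and within sex it ran from -0.148 to 0.13. The number of arrays limits the precision.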

Additional observations from a re-analysis of the deposited data

Results flagged for a closer look

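In 31 of 432 groups of 4 arrays (108 named genes in 4 groups), 1 array lay apart from the other 3 by Dixon's ratio, where chance gives about 1 in 20. Of these, 7 were on deficient air M2, 5 on wildtype ozone M2, 4 on deficient ozone F2, 4 on wildtype air F1 and 3 on deficient ozone F1. On deficient air M2 the values were 10.64 for Krt13, 11.14 for Tnnt3, 9.36 for Sprr1a, 6.99 for Arg1, 6.26 for Elavl3, 6.06 for Nusap1 and 11.11 for Ier3. On wildtype ozone M2 they were 13.68 for S100a8, 10.99 for Mt2, 10.88 for Sod3, 5.30 for Ube2t and 11.21 for Adipor1. Deficient ozone F2 was high for Il6 (6.21), Cxcl1 (6.69), Col1a1 (11.95) and Mki67 (9.91). Wildtype air F1 had 10.91 for Col1a1, 9.35 for Psmb9, 6.72 for Plk4 and 4.47 for Saa1. Deficient ozone F1 had 11.65 for Lcn2, 5.74 for Socs1 and 4.70 for Tnnt3.

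On single other arrays the values were 6.96 for Cyp7b1 on wildtype ozone F2, 5.91 for Cxcl1 on wildtype ozone F1, 8.35 for Bbx on wildtype air F2 and 5.41 for Spin4 on deficient ozone M1. In deficient air they were 4.29 for Il6 on M1, 5.72 for Il17a and 9.54 for Eln on F1, and 4.71 for Klhl1 on the array labelled deficient air F2.

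Cth differed between the sexes in its interaction by -1.62 log2 (female minus male), the only gene called for that difference by limma over all 16 arrays.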

How the results depend on the processing

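The interaction was called by limma for 0 genes under each alternative but females alone, where it was called for 1, Pcdhb9 (1.77 ± 0.19, adjusted p = 0.0392; 0.01 in males). With the replicate number as a block (replicate block) it was called for 0 genes, 587 had an unadjusted p under 0.05, and the smallest adjusted p was 0.78. The count called for the average ozone effect, 6031, of 12393 genes, was 10025 of 20380 with every probe set on its own, 750 at a fold of at least 1.5 and 3933 in females alone. The sex difference of the interaction was called for 0 to 180 genes with 1 array left out in turn, where the sex that lost an array has 1 mouse in that group and is assumed to vary like the others. It was 180 without deficient air M1, which leaves M2, the array high in squamous and muscle markers, as the only male of that group, 20 without wildtype ozone M1, 1 without deficient ozone M1 and 0 in the other 13 fits, and Cth was among those called in the first 3. Among strong responses, the 22 amplified falls were 13 with the mean of all probe sets, 45 in females alone, 12 without deficient ozone F2 and 9 without that array and the 3 air arrays with markers of other tissues. The 25 damped rises were 16 without those 3 air arrays and 38 with every probe set on its own, beside 137 amplified rises and 83 damped falls. Of 108 named genes 86 kept the sign of the interaction under the alternatives that could be fitted to them, as did 72 of the 74 with a size of at least 0.3 (all but Arg1 and Sprr1a), though 25 of the 108 were left out with the dimmest probe sets. Leaving out 1 array moved 17 of those 74 by over 1.5 times. Setting the arrays to a common median moved the median interaction of all genes from -0.0042 to -0.0241.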
